A study of Canis lupus familiaris with 33 samples.

Results

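The genes described here carry the interleukin-6 and interleukin-10 signal into the nucleus: the cytokines IL6 and IL10, the receptor chains IL6R, IL6ST and IL10RA, the transcription factor STAT3 and its feedback inhibitor SOCS3. They are 7 of the 15115 genes that the Affymetrix Canine Genome 2.0 array names. Every probeset whose only gene symbol in the platform annotation is one of these was taken, without regard to its values, which gave 12 probesets, of which 4 belong to STAT3, 2 to IL6R, 2 to SOCS3 and 1 to each of the other genes. Where a gene had several probesets, the one with the highest mean over all 33 arrays was read first and the others were set beside it.

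IL-6 binds IL6R, and the pair recruits the shared signalling chain gp130, which IL6ST encodes and which also serves LIF, IL-11, IL-27 and oncostatin M. IL-10 acts through IL10RA and IL10RB. Both receptor complexes activate JAK kinases, which phosphorylate STAT3, and SOCS3 is induced by STAT3 and shuts off gp130 in turn. In lymph nodes IL-6 is made by stromal cells, macrophages and B cells and helps plasma cell formation, IL-10 is made by macrophages, T cells and some B cells, and active STAT3 is known from the activated B cell type of this lymphoma in people.

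The tumour samples were lymph node biopsies of pet dogs, and the healthy nodes were taken from dogs after euthanasia, so that the way of sampling cannot be told apart from disease. The naïve group held 16 samples of untreated diffuse large B-cell lymphoma (DLBCL) from dogs aged 2.7 to 13.3 years, 8 female and 8 male. The relapsed group held 7 samples from dogs aged 6.4 to 11.8 years, 1 female and 6 male. They were taken 13 to 672 days after the last treatment. Of these dogs 3 had had CHOP alone and 1 CHOP and then CCNU, L-asparaginase and prednisone. Another 1 had had doxorubicin and prednisone and then CCNU, L-asparaginase and prednisone. There was 1 with doxorubicin, cytoxan and prednisone, and 1 with a protocol labelled GS. Of the naïve dogs 2 received rimadyl and 1 doxycycline, and 1 relapsed dog received tramadol, while medication is not given for 7 of the 16 naïve samples or for any of the 10 healthy arrays. The healthy group held 10 arrays of nodes from dogs with conditions other than lymphoma, whose age and sex are not in the labels, and by case number 4 of these arrays are of 1 dog, called healthy dog 1 here. DLBCL samples 11 (naïve) and 12 (relapsed) also came from 1 dog. Arrays of a dog were averaged, which left 22 DLBCL dogs and 7 healthy dogs. In the comparisons of single groups the samples of that dog were kept apart, as 16 naïve and 7 relapsed units. Values are log2 expression after RMA, a difference of 1 is a doubling, and the 17 tag probesets without a canine target averaged 2.79 to 4.56.

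Some samples stood apart. DLBCL sample 5, a naïve tumour, had the lowest mean of the 6 measured B cell markers of all tumours (7.97, against 9.41 to 10.31 in the healthy nodes), with MS4A1 (CD20) at 8.51 where the 20 tumours other than samples 5 and 21 had 12.57 to 13.86, and it had the highest macrophage and neutrophil means. DLBCL sample 21, also naïve, had the second lowest B cell mean (10.13), the lowest stromal mean (8.93) and the highest plasma cell mean (10.93). RNA quality moved with disease. Its integrity number (RIN) averaged 9.64 ± 0.294 (SD, n = 22) over the DLBCL dogs and 7.11 ± 1.12 (SD, n = 7) over the healthy ones (two-sided exact permutation p = 3.84e-06). T cell markers also moved with it: the mean of 9 such genes was 7.79 to 10.39 in the tumours and 10.68 to 11.72 in the healthy nodes. Dendritic cell markers did so as well, with a mean of 7 genes of 8.27 to 9.58 in the tumours and 9.60 to 9.96 in the healthy nodes. These are bulk tissues, in which fewer cells of a type cannot be told apart from less RNA in each.

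IL6 itself had the widest spread of the axis, and its mean difference did not pass the test. In the healthy dogs it ranged from 6.53 through a median of 7.57 to 8.08, in the naïve tumours from 4.81 through 7.16 to 11.13, and in the relapsed tumours from 5.0 through 7.56 to 9.18. The tumours lay on both sides of the healthy nodes: 7 of the 22 were above every healthy dog, 7 below every one and 8 between. The difference between the means was 0.08 (SE 0.65, adjusted p = 0.940), and without samples 5 and 21 it was -0.01 (SE 0.66, adjusted p = 0.994). The standard deviation of IL6 was 1.74 in the tumours and 0.52 in the healthy dogs, and by its spread over tumours it was 81st of the 15115 genes. The highest values were in DLBCL samples 15 (11.13) and 20 (10.85), the next in sample 10 (9.47), and the lowest in samples 19 (4.81) and 13 (5.0), the last of these a relapse.

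IL10, which restrains macrophages and T cells and supports B cell survival, was lower than in any healthy dog in 13 of 22 tumours and higher than in every one in 2. Healthy dogs ranged from 8.16 through 8.31 to 9.11, naïve tumours from 7.01 through 7.84 to 10.36, and relapsed tumours from 7.48 through 8.16 to 8.91. The tumours above all healthy nodes were samples 21 (10.36) and 5 (9.43), and among the healthy dogs, dog 1 was alone at the top. The difference was -0.31 (SE 0.29, adjusted p = 0.443) over all tumours and did not pass the test. It was -0.19 (SE 0.31, adjusted p = 0.686) without healthy dog 1. It was -0.49 (SE 0.20, adjusted p = 0.0615) without samples 5 and 21, an alternative chosen after the values were seen. In the naïve dogs alone it went from -0.35 (SE 0.31, adjusted p = 0.408) to -0.62 (SE 0.21, adjusted p = 0.0236) when these samples were left out. As the only tumours above all healthy dogs, they could only deepen the fall by being left out, so the smaller p is no support for it.

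**Figure D1:**
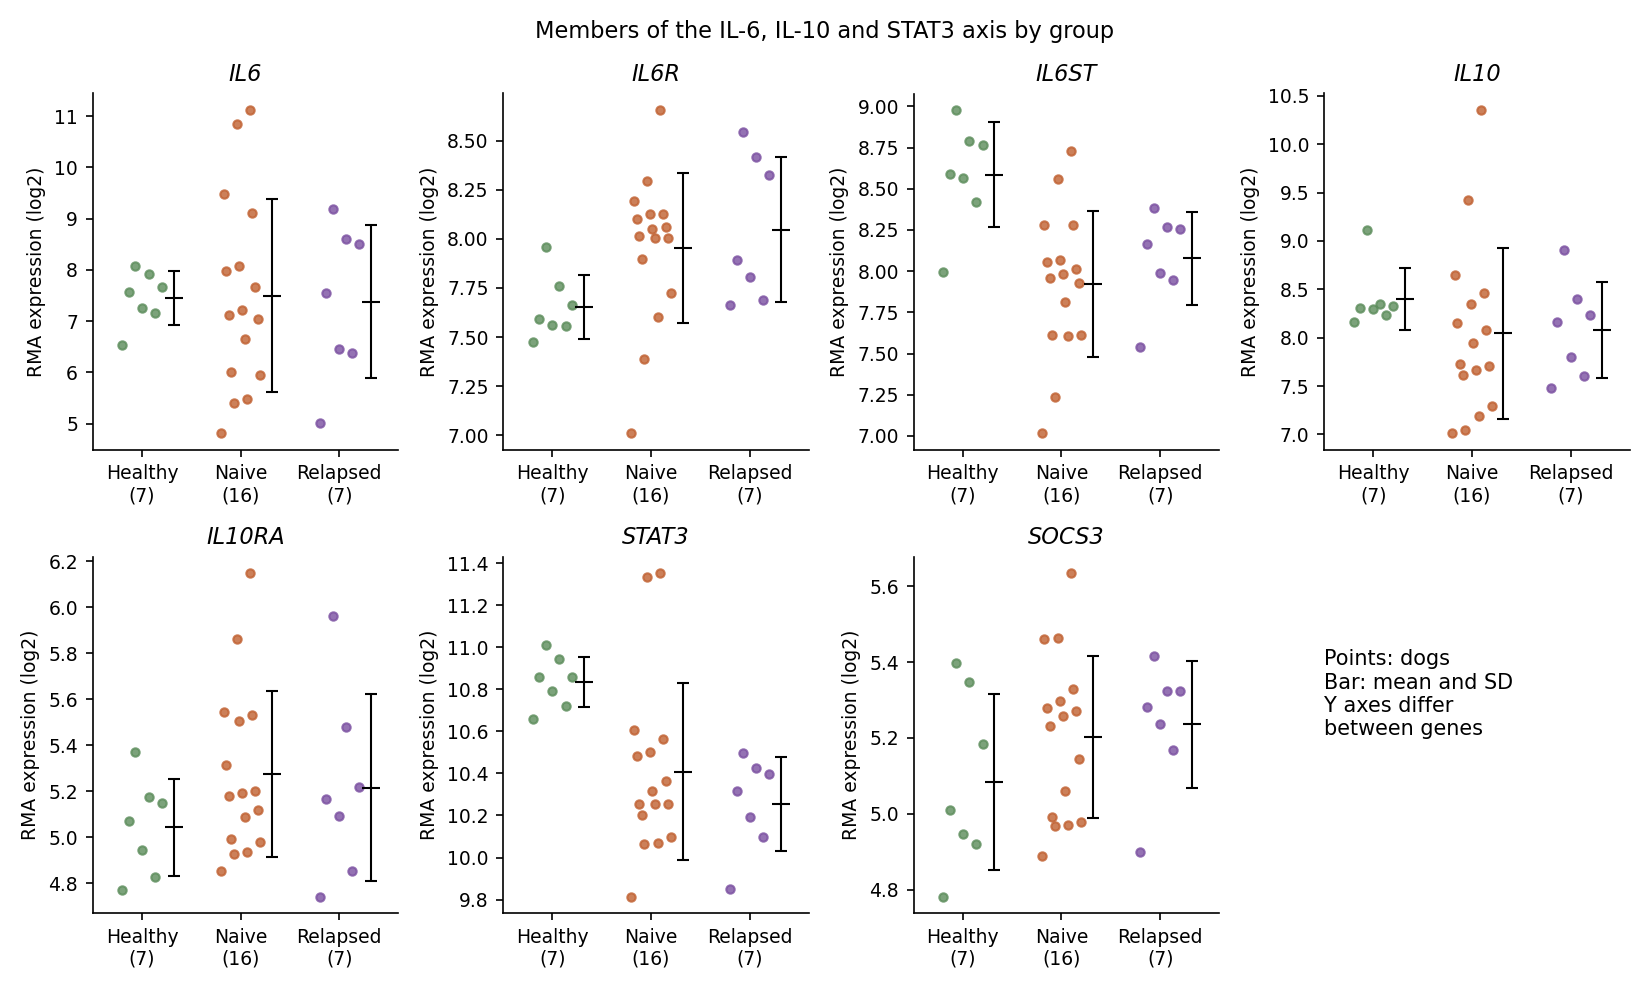
Log2 expression of the 7 genes (y axis, RMA values, brightest probeset, with a scale of its own for each gene) in 7 healthy, 16 naïve and 7 relapsed dogs, where points are dogs and bars the mean and SD. IL6 fans out from 4.81 to 11.13 in the tumours around healthy values of 6.53 to 8.08, and STAT3 leaves the healthy range empty of tumours.

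Among the receptor chains, IL6ST was lower in DLBCL, and IL6R and IL10RA did not pass the test. IL6ST had 7.99 to 8.98 with a median of 8.59 in the healthy dogs, 7.01 to 8.73 with a median of 7.97 in the naïve tumours and 7.54 to 8.38 with a median of 8.17 in the relapsed tumours. Of the 22 tumours 12 were below every healthy dog and 21 below the healthy median, and none was above the healthy range. IL6ST fell by 0.62 on the log2 scale (SE 0.17, adjusted p = 0.00446), and by 0.61 (SE 0.14, adjusted p = 0.00108) without samples 5 and 21. Sample 5 had the lowest value of all tumours (7.01) and sample 21 the highest (8.73), so that the tumours highest in STAT3 were at opposite ends here.

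IL6R, the chain that binds IL-6, had 7.48 to 7.96 in the healthy dogs, 7.01 to 8.66 in the naïve and 7.66 to 8.54 in the relapsed tumours, with medians of 7.59, 8.03 and 7.89. It was above every healthy dog in 13 of 22 tumours and below every one in 2, samples 25 (7.01) and 2 (7.39). The share of all genes with such counts of tumours was not computed, here or for IL6, IL10 and IL6ST. The difference of 0.30 (SE 0.14, adjusted p = 0.0910) missed the threshold, and the second IL6R probeset, at 5.07 to 5.75 in all dogs, differed by 0.05 (SE 0.07, adjusted p = 0.608). IL10RA, the chain that binds IL-10, was dim, with 4.77 to 5.37 in the healthy dogs, 4.85 to 6.15 in the naïve and 4.74 to 5.96 in the relapsed tumours. Its difference was 0.23 (SE 0.14, adjusted p = 0.223), and samples 21 (6.15) and 18 (5.96) were highest.

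On its brightest probeset STAT3 split the tumours from the healthy nodes without overlap, but in both directions. The healthy dogs were close together, from 10.66 through 10.86 to 11.01. The relapsed tumours had 9.85 through 10.32 to 10.50, and the naïve tumours 9.81 through 10.29 to 11.35. Of the 22 tumours 20 were below every healthy dog, 2 were above every one and 0 were inside the healthy range. That range was 0.35 wide, and the share of all genes whose healthy range holds no tumour was not counted. The tumours above were samples 21 (11.35) and 5 (11.34), and the next was sample 23 (10.61). STAT3 fell by 0.46 (SE 0.14, adjusted p = 0.0136). Without samples 5 and 21 it fell by 0.56 (SE 0.09, adjusted p = 1.85e-05). These were the only tumours above the healthy range, and they were left out after the values were seen. Leaving them out could only enlarge the fall, so the smaller p is no further support. The 4 probesets of STAT3 had negative differences but did not all pass: the second called one had -0.47 (SE 0.14, adjusted p = 0.0130), and the others had -0.26 (SE 0.17, adjusted p = 0.253) and -0.14 (SE 0.16, adjusted p = 0.550). The groups overlapped on each of these: 2 of 22 tumours were inside the healthy range on the second called probeset, and 17 and 13 on those not called, with 5 below it on either. On those not called the tumours with the highest values were again samples 5 and 21 (8.84 and 8.77 on the one, 8.38 and 8.24 on the other). Averaged over the probesets the difference was -0.33 (SE 0.14, adjusted p = 0.0653).

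SOCS3 was dim on both of its probesets, little above the brightest tag probesets. The brighter one had 4.78 to 5.40 in the healthy dogs, 4.89 to 5.63 in the naïve and 4.90 to 5.42 in the relapsed tumours, with a difference of 0.13 (SE 0.09, adjusted p = 0.289). The other one had a difference of 0.21 (SE 0.10, adjusted p = 0.124).

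**Figure D2:**
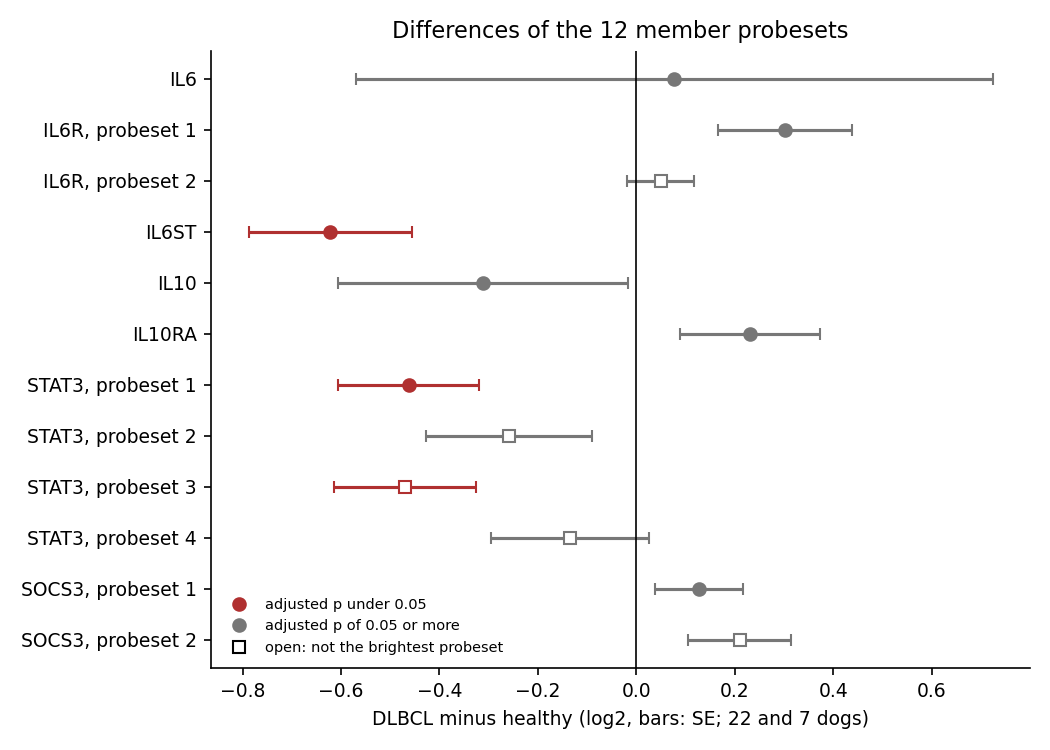
Log2 difference between 22 DLBCL and 7 healthy dogs (x axis, bars are the SE) for the 12 probesets of the axis, red where the adjusted p was under 0.05. IL6ST (-0.62) and STAT3 probesets 1 (-0.46) and 3 (-0.47) were called, and the bar of IL6 is the longest.

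Counted by gene, 2 of the 7 were called lower in DLBCL, where 14.9% of all genes were, and 0 of 7 were called higher, where 19.9% of all genes were. IL6R had an unadjusted limma p of 0.0353, the only other member under 0.05. With RIN as a covariate, which nearly follows the groups, the differences were -0.65 (SE 0.36, adjusted p = 0.410) for IL6ST and -0.40 (SE 0.31, adjusted p = 0.599) for STAT3, and calls over all genes went from 3013 higher and 2245 lower to 101 and 180. Within the 22 tumours, where RIN was 8.9 to 10, its correlation with IL6ST was -0.21 and with STAT3 0.04 (permutation p = 0.348 and p = 0.875, adjusted over 70 relations 0.716 and 0.928). The healthy dogs had RIN of 5.8 to 9.15, which reaches far below the tumours, so these correlations cannot speak to the difference between the groups.

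The naïve and relapsed tumours were then set separately against the same healthy dogs. In naïve DLBCL 2 of 7 genes were called lower (15.1% of all genes) and 0 higher (19.9%): IL6ST with -0.66 (SE 0.17, adjusted p = 0.00332) and STAT3 with -0.43 (SE 0.15, adjusted p = 0.0270). In relapsed DLBCL 1 of 7 was called lower (8.96% of all genes) and 0 higher (10.8%): STAT3 with -0.58 (SE 0.18, adjusted p = 0.0198), while IL6ST had -0.51 (SE 0.20, adjusted p = 0.0775). The call of STAT3 was lost without healthy dog 4 or healthy dog 5 (adjusted p up to 0.0570) in the naïve comparison and without DLBCL sample 24 (adjusted p = 0.0511) in the relapsed one, where the difference kept its sign. Both comparisons share their healthy dogs.

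Relapsed and naïve tumours were then compared directly. By limma no member was called higher or lower, as were 0% of all genes in either direction, with 426 genes higher and 407 lower at an unadjusted p under 0.05 and 0 called by the methods' test on single arrays. On the brightest probesets the differences, relapsed minus naïve, ran from -0.15 for STAT3 (SE 0.15, adjusted p = 0.939) to 0.16 for IL6ST (SE 0.17, adjusted p = 0.946). For IL6 the difference was -0.11 with an SE of 0.69, and for IL10 0.04 with an SE of 0.31. In the dog with both samples, IL6 was 5.40 in the naïve and 6.45 in the relapsed sample. SOCS3 was 5.06 and 5.42 on its brighter probeset but 5.24 and 4.77 on the other one, so its direction is not settled. On their brightest probesets the other members differed by less between these samples, such as IL6R with 8.66 and 8.54.

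The genes around the axis were read from 6 lists, whose counts stand beside 19.9% of all genes called higher and 14.9% called lower in DLBCL. Of 12 measured cytokines and receptors that use gp130, 4 fell in DLBCL and none rose, with a median difference of -0.25 beside 0.06 over all genes. LIFR, the LIF receptor that pairs with gp130, fell by 1.43 on the log2 scale (8.88 to 7.46, SE 0.27, adjusted p = 0.000191). CLCF1, a B cell stimulating cytokine of the family, fell by 0.46 (SE 0.07, adjusted p = 1.64e-05), and the receptors IL11RA (-0.57, SE 0.17) and IL27RA (-0.50, SE 0.15) fell as well. The ligands LIF (0.11), OSM (0.14) and IL11 (0.08) did not pass the test. Leaving out samples 5 and 21 added EBI3 and CNTFR to the genes called lower.

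In the IL-10 family 1 of 10 genes rose and 2 fell, near the shares of all genes. IL19, a cytokine made by activated monocytes, rose by 0.67 (6.08 to 6.75, SE 0.14, adjusted p = 0.000478). IL26, a T cell cytokine, fell by 0.99 (SE 0.27, adjusted p = 0.00501), and IL10RB, the second chain of the IL-10 receptor, fell by 0.18 (12.32 to 12.14, SE 0.07, adjusted p = 0.0392). IL24 had 0.24 (SE 0.14) and was not called. The median of the list was 0.04.

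Of 6 JAK kinases and other STATs 2 fell and none rose, where 14.9% and 19.9% of all genes did. JAK1, which works at gp130 and at IL10RA, fell by 0.25 (SE 0.07, adjusted p = 0.00539), and STAT5A, which carries interleukin-2 type signals, fell by 0.53 (SE 0.15, adjusted p = 0.00631). STAT5B had -0.41 (SE 0.17, adjusted p = 0.0618) and STAT6 had 0.28 (SE 0.12, adjusted p = 0.0795). JAK2 and STAT5B were called lower as well when samples 5 and 21 were left out.

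Among 9 brakes on JAK-STAT signalling 5 rose and 2 fell, where 19.9% and 14.9% of all genes did, with a median of 0.23. The risen ones include the phosphatases PTPN6 (SHP-1), with 0.64 (12.20 to 12.84, SE 0.11, adjusted p = 6.98e-05), PTPN11 (SHP-2), with 0.60 (SE 0.12, adjusted p = 0.000243), and PTPN1, with 0.71 (SE 0.15, adjusted p = 0.000767). PTPN11 is known to carry signals forward as well as to dampen them. PIAS1, a SUMO ligase, fell by 0.53 (SE 0.12, adjusted p = 0.00130). SOCS1 rose by 0.23 (SE 0.07, adjusted p = 0.00986).

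Of 15 measured STAT3 target genes 3 rose, near the share among all genes (19.9%), and 5 fell (14.9% of all genes), with a median of -0.13. BCL2L1, which encodes the survival protein BCL-XL, fell by 1.09 (SE 0.16, adjusted p = 6.58e-06), and CCND1 (cyclin D1) fell by 1.09 (SE 0.28, adjusted p = 0.00310). BIRC5 (survivin) rose by 1.06 (SE 0.27, adjusted p = 0.00284) and MYC by 1.04 (SE 0.27, adjusted p = 0.00408), both of which other pathways also drive in dividing cells. The proliferation genes, a mean of 4, were at 9.25 to 11.43 in the tumours and at 8.47 to 10.28 in the healthy nodes, and their part in these rises was not tested. Of 9 inflammatory genes often made together with IL6, CCL2 (0.74, SE 0.28, adjusted p = 0.0406) and TLR2 (0.47, SE 0.17, adjusted p = 0.0331) rose, IL1A fell (-0.44, SE 0.16, adjusted p = 0.0372) and CXCL8, the neutrophil chemokine, had -1.94 (SE 0.79, adjusted p = 0.0579). With RIN as a covariate 1 of the genes of these 6 lists was called, IL26. FOS, called over all tumours at an adjusted p just under the threshold, was not called without samples 5 and 21, and neither was CCL2, while CXCL8 was. Without these samples the calls among the 15 STAT3 target genes were 2 higher and 5 lower, and included VEGFA, HIF1A and PRDM1.

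**Figure D3:**
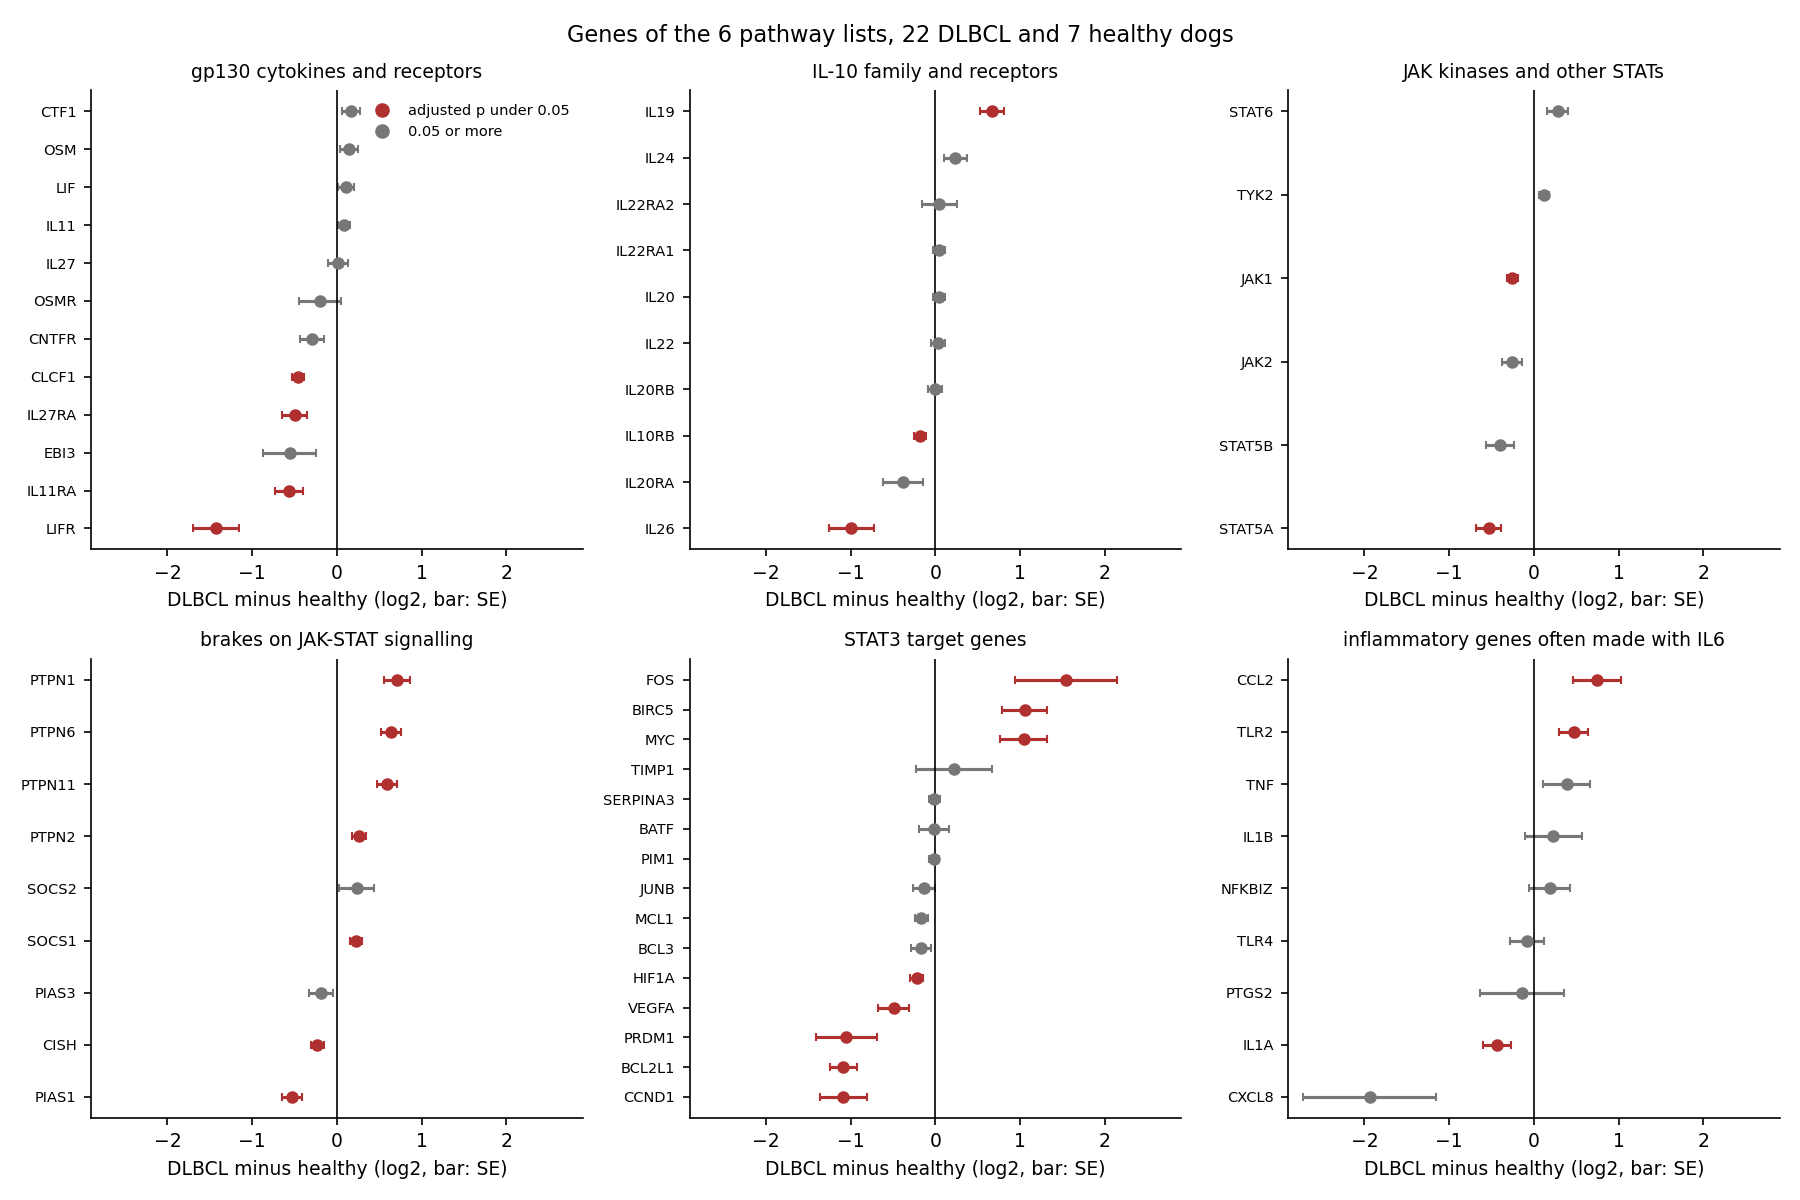
Log2 difference between 22 DLBCL and 7 healthy dogs (x axis, bars are the SE) for the measured genes of 6 lists around the axis, red where the adjusted p was under 0.05. The gp130 list shows calls on the lower side only, led by LIFR at -1.43, and the brakes show 5 calls on the higher side, led by PTPN1 at 0.71.

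Whether the members rise and fall together from tumour to tumour was asked over the 22 DLBCL dogs, for all 21 pairs. By Pearson's r, 1 pair passed after adjustment, and by Spearman's rho 1 pair, and they were different pairs. IL10 and STAT3 had r = 0.68 (permutation test, p = 0.00147, adjusted p = 0.0309) and rho = 0.40 (p = 0.0638, adjusted p = 0.335). Samples 21 and 5 were the highest in both genes, and without them r was 0.15 over 20 dogs, so that the relation rests on these samples. Left out singly, sample 21 brought r to 0.49 and sample 5 to 0.61, and neither passed (adjusted p = 0.238 and 0.0954). Without sample 23, 24 or 6 r was 0.68, 0.67 and 0.67 and just missed the threshold, as did r = 0.65 over the 18 arrays of known array day after centring within the day (adjusted p = 0.0743). Sample 5 has no array day and is not among the 18.

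IL6 and STAT3 passed by rank and not by r. Their r was 0.45 (permutation test, p = 0.0339, adjusted p = 0.237) and their rho 0.70 (p = 0.00035, adjusted p = 0.00735). Without the tumours farthest from the median of IL6, samples 15 and 20, r was 0.57, and without samples 5 and 21 it was 0.59. The tumours with the lowest IL6, samples 19 and 13, had STAT3 at 10.25 and 10.10, and those with the highest, samples 15 and 20, had it at 10.32 and 10.50. The other STAT3 probesets gave rho of 0.57, 0.56 and 0.58 with IL6. Centred within the array day, r was 0.42 over 18 arrays.

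The other pairs did not pass by either measure. IL10 and its receptor chain IL10RA had r = 0.53 (permutation p = 0.0117, adjusted p = 0.123) and rho = 0.30, and r was 0.19 without samples 21 and 5. IL6R and IL10 had r = -0.38 (permutation p = 0.0852, adjusted p = 0.358) and rho = -0.49. The second, dimmer IL6R probeset had r = 0.14 and rho = 0.08 with IL10, and the IL6R probesets had r = -0.31 with each other. IL6 and IL10 had r = 0.08, IL6 and IL6R 0.08, IL6ST and STAT3 0.08, and STAT3 and SOCS3 0.29, with adjusted p of 0.594 or more in each. IL6ST and STAT3 had r = 0.69 without samples 20 and 5, the tumours farthest from the IL6ST median, but their rho over all dogs was 0.29. As a description, among all named genes ordered by r with STAT3, IL10 was 197th and IL6 1180th.

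**Figure D4:**
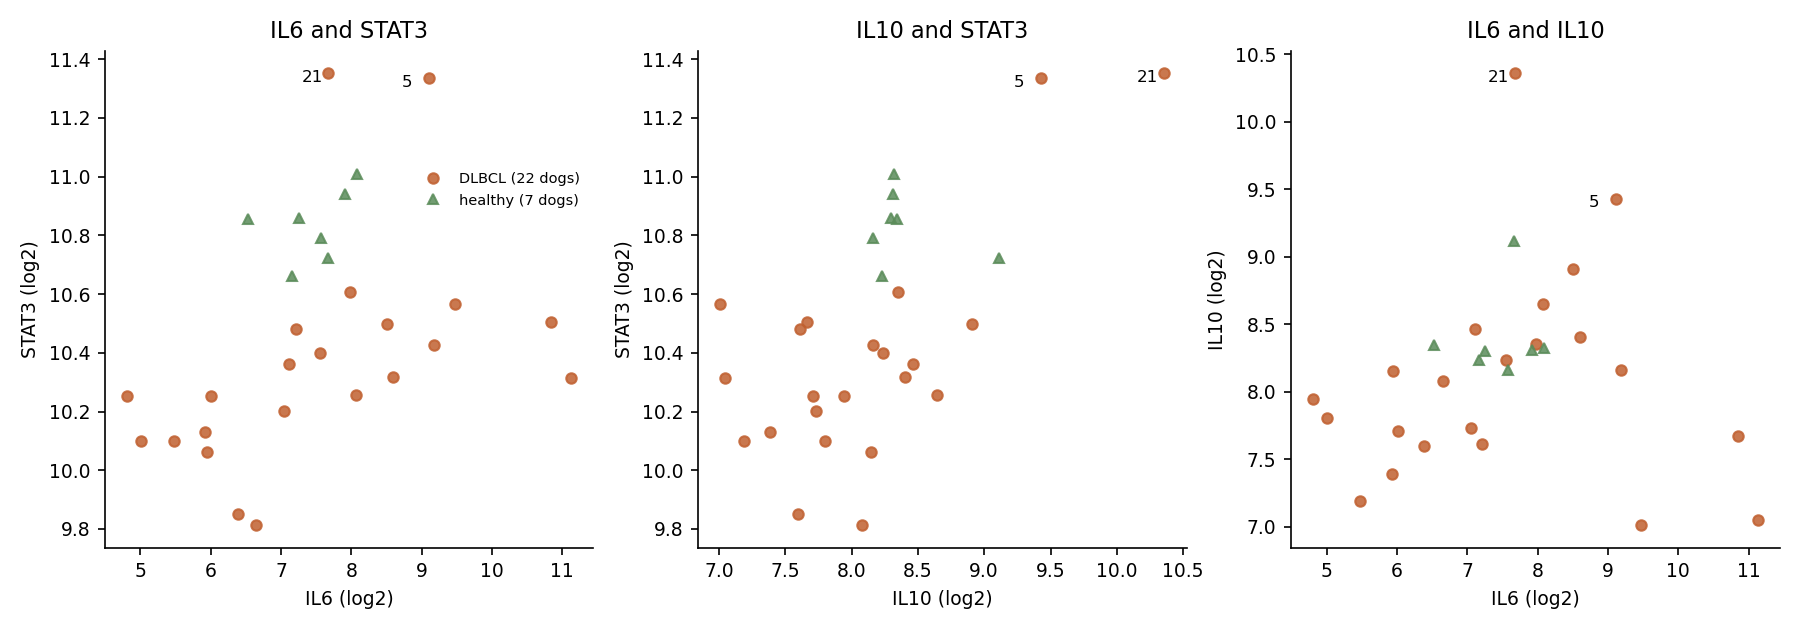
Log2 expression of IL6 against STAT3, IL10 against STAT3 and IL6 against IL10, where circles are 22 DLBCL dogs and triangles 7 healthy dogs, with DLBCL samples 5 and 21 marked by number. In the middle panel these samples lie alone at upper right, and without them r was 0.15.

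For each member the named genes with the most similar pattern over the 22 tumours were listed, as a description. STAT3 was most like PRDM1 (r = 0.90, rho = 0.83), which encodes BLIMP-1, the master regulator of plasma cells, XBP1 (r = 0.88, rho = 0.84), a plasma cell secretion factor, and PILRA (r = 0.87, rho = 0.70), a receptor of myeloid cells. PRDM1 stood at 10.09 in sample 21 and 8.78 in sample 5, against 5.91 to 7.45 in the other 20 tumours, and XBP1 at 13.14 and 13.05 against 11.45 to 12.73. Without these samples r with STAT3 was 0.72 for PRDM1, 0.71 for XBP1 and 0.55 for PILRA.

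IL10 was most like MSRB1 (r = 0.88), AIF1 (r = 0.88, rho = 0.83), a macrophage gene that encodes IBA1, and PSTPIP2 (r = 0.88, rho = 0.78), a gene of myeloid cells, and without samples 21 and 5 these had r of 0.69, 0.78 and 0.75. IL6ST was most like CD200 (r = 0.83, rho = 0.74), a surface protein of endothelial and lymphoid cells that restrains macrophages, SHB (r = 0.81) and POLR2F (r = 0.76). IL6 was most like FRMD6 (r = 0.70), MDGA1 (r = 0.70) and SRGAP1 (r = 0.69, rho = 0.72), and FRMD6 and MDGA1 were as dim as tag probesets. IL6R was most like SUCLG2 (r = 0.70), SRBD1 (r = 0.69, rho = 0.81) and SLC27A5 (r = 0.68). IL10RA was most like BTG2 (r = 0.78), C9H9orf116 and RPH3AL (r = 0.76 and 0.75), and without samples 18 and 21 the r with BTG2 was 0.54. SOCS3, being dim, had IGSF5 (r = 0.71), the odorant receptor gene OR52K1 (r = 0.66) and TMEM43 (r = 0.65).

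IL6, IL10 and STAT3 were also set against the 15 STAT3 target genes and the 9 inflammatory genes, 72 relations in all. This family was chosen after the values were seen, and 16 relations passed by r and fewer by rho. STAT3 was correlated with PRDM1 (permutation p = 1e-05, the smallest these permutations can give, adjusted p = 0.00072) and with VEGFA (r = 0.70, rho = 0.73, permutation p = 4e-05, adjusted p = 0.00144), an inducer of vessel growth, and the relation with VEGFA had r = 0.62 without samples 21 and 5. IL6 was also correlated with VEGFA (r = 0.59, rho = 0.64, permutation p = 0.00418, adjusted p = 0.0251) and with HIF1A (r = 0.61, rho = 0.59, permutation p = 0.00264, adjusted p = 0.0206), the hypoxia factor. Of the 9 inflammatory genes 0 passed with IL6, with a median r of 0.04. Without samples 15 and 20, r with IL6 was 0.82 for CCL2, 0.61 for PTGS2 and CXCL8, 0.54 for IL1B and 0.50 for TLR4. It was 0.18 for IL1A, 0.15 for TLR2, 0.08 for NFKBIZ and -0.49 for TNF. Over all dogs CCL2 had rho = 0.42 with IL6 (permutation test, adjusted p = 0.182). With STAT3, 3 of the 9 passed: IL1B (r = 0.62), CXCL8 (r = 0.56) and TLR4 (r = 0.62), of which TLR4 had 0.20 without samples 21 and 5. With IL10, 6 of the 15 target genes passed and 1 of the 9 inflammatory genes, TLR4 (r = 0.69). Without samples 21 and 5, r with IL10 was 0.50 for TLR4, 0.44 for TIMP1 and CCND1, and 0.40 for PRDM1. It was 0.09 for BATF and 0.08 for BCL2L1. Among the target genes TIMP1 alone passed with IL10 by rho (rho = 0.63, permutation test, adjusted p = 0.0364). As a background, the weakest relation that passed had a size of r of 0.587 with IL6, 0.562 with IL10 and 0.562 with STAT3, and 1.01%, 7.50% and 7.34% of the other 15114 named genes were at least as strongly correlated with these members. BCL2L1 had r = 0.69 with STAT3 but rho = 0.25, and r was -0.06 without samples 21 and 5. BCL3 had r = 0.70 with IL10 and 0.60 without them. All the relations with STAT3 target genes compare RNA levels, and phosphorylated STAT3 was not measured here.

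Set against markers of the cells that a node holds, IL10 was correlated with macrophage and dendritic cell markers and STAT3 inversely with B cell markers. Over 70 relations of 7 genes with 9 marker lists and RIN, 3 passed by r. IL10 had r = 0.69 with the mean of 11 macrophage markers (rho = 0.66, permutation p = 0.00017, adjusted p = 0.0119), and 0.60 without samples 21 and 5 (adjusted p = 0.0606). AIF1 is one of these markers. IL10 had r = 0.67 with 7 dendritic cell markers (rho = 0.74, permutation p = 0.00042, adjusted p = 0.0147), and 0.71 without these samples. Centred within the array day these were 0.55 and 0.55 over 18 arrays (adjusted p = 0.120 in both).

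STAT3 had r = -0.69 with the B cell markers (permutation p = 0.00091, adjusted p = 0.0212), and -0.26 without samples 21 and 5, so that this relation too rests on them. With 5 plasma cell markers STAT3 had r = 0.65 (permutation p = 0.00322, adjusted p = 0.0513) and rho = 0.69 (adjusted p = 0.0250). After centring within the array day r was 0.82 (adjusted p = 0.0049), over arrays that lack sample 5. The relation turned on single tumours: r was 0.87 without sample 5, 0.40 without sample 21 (adjusted p = 0.308), 0.72 without both, and 0.40 without samples 14 and 21, the farthest from the marker median. XBP1 is one of these markers. With macrophage markers STAT3 had r = 0.57 (adjusted p = 0.0513) and rho = 0.62 (adjusted p = 0.0467), but r = 0.34 without samples 21 and 5.

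IL6ST had r = 0.58 with 8 endothelial markers (rho = 0.59, permutation p = 0.0044, adjusted p = 0.0513), 0.74 without samples 5 and 21 and 0.47 without samples 20 and 3. Centred within the array day over 18 arrays, IL6ST passed with endothelial markers (r = 0.67, adjusted p = 0.0320), T cell markers (r = 0.71, adjusted p = 0.0252) and macrophage markers (r = 0.71, adjusted p = 0.0252). Over all 22 dogs macrophage markers had r = 0.39 and T cell markers r = 0.42 (adjusted p = 0.345 and 0.300). The 18 arrays lack sample 5, which had the lowest IL6ST, so the centring cannot be told apart from its absence. The endothelial mean was 7.92 to 9.28 in the tumours and 9.04 to 10.00 in the healthy nodes, so that it moved with the difference in IL6ST, as T cell markers did, and their part in that difference was not tested. IL10RA had r = 0.57 with macrophage markers (permutation p = 0.00553, adjusted p = 0.0553), and rho = -0.60 with B cell markers (adjusted p = 0.0486), where r was -0.38. IL6R had r = -0.54 with dendritic cell markers (permutation p = 0.00879, adjusted p = 0.0769), and -0.29 without samples 25 and 5. IL6 had r = 0.37 with 9 stromal markers such as collagens (permutation p = 0.0936, adjusted p = 0.345) and rho = 0.55 (adjusted p = 0.0958), and r was 0.76 without samples 20 and 21, the tumours farthest from the stromal median. IL6 passed with no marker list.

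**Figure D5:**
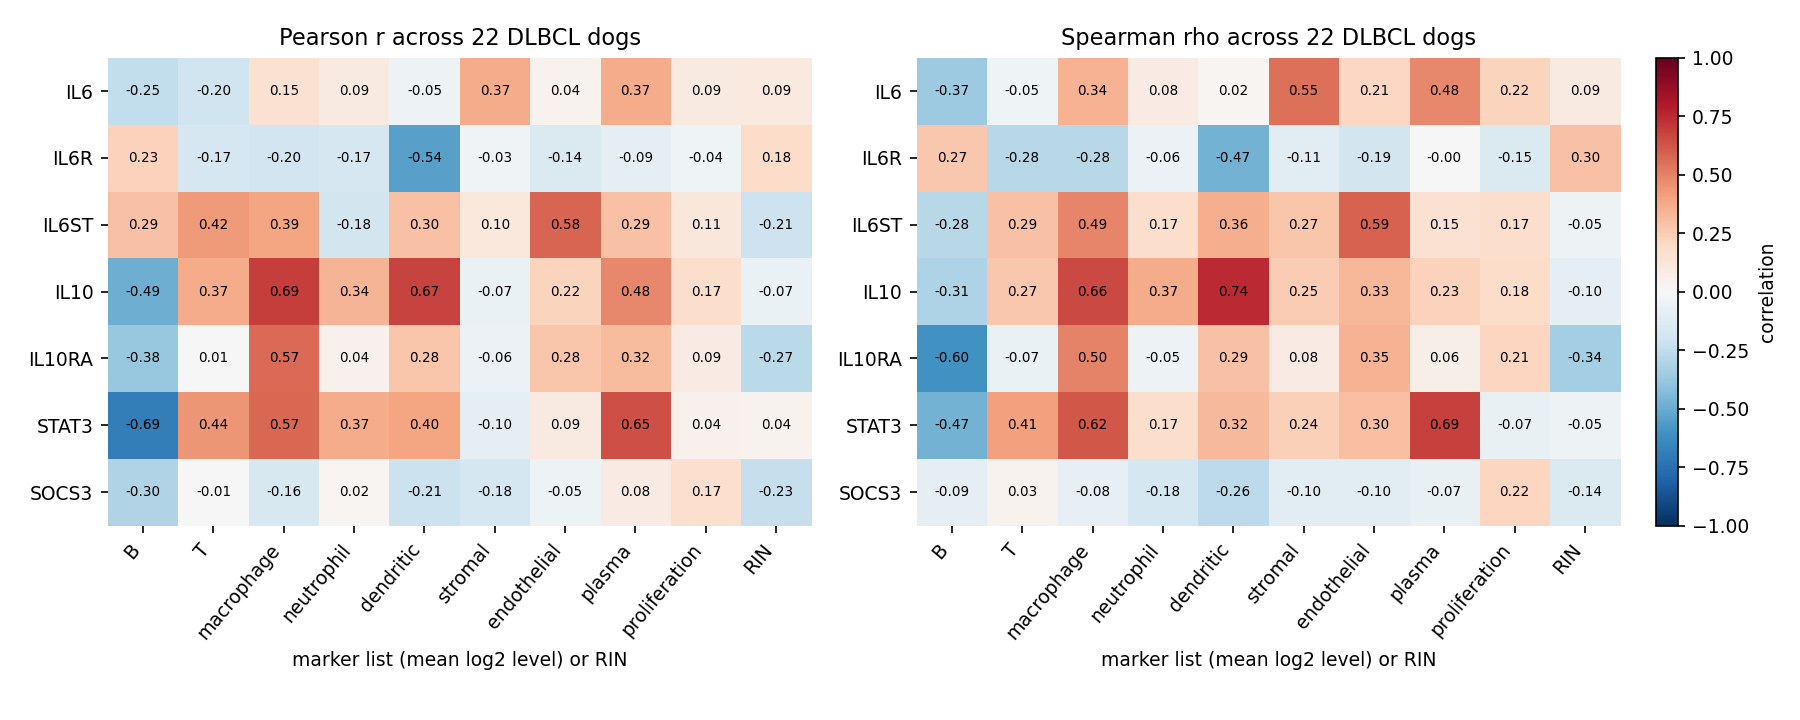
Correlation over 22 DLBCL dogs of each member (rows) with the mean log2 level of 9 marker lists and with RIN (columns), Pearson's r at left and Spearman's rho at right, from blue (-1) to red (1). IL10 is reddest with macrophage (0.69) and dendritic markers (0.67), and STAT3 with plasma cell markers (0.65).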

How the data were processed

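Lymph node RNA was amplified, labelled with biotin and hybridised by the authors to the Affymetrix Canine Genome 2.0 array. The deposited values are log2 expression from RMA in the Affymetrix Expression Console, per the labels (version not given in the sources used here). RMA gives all arrays one distribution of probe values. There are 33 arrays, whose number limits the precision. RNA was extracted in balanced random batches, which are not assigned to samples here. For 18 of the DLBCL arrays a day could be read from array names listed in a supplement of the study ("array day"). The sample numbers in those names were taken to be the DLBCL sample numbers, which the labels do not state.

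Arrays were grouped from the labels and averaged by case number. All 43035 probesets were tested with limma 3.58.1 in R 4.3.3, with Benjamini-Hochberg adjustment, and a gene was called at an adjusted p under 0.05. Of the probesets 29264 had 1 gene symbol, 439 had several, and a gene was read from its brightest probeset. Correlations were tested with 100000 two-sided permutations of dogs (Python 3.11.15, numpy 2.4.6, scipy 1.17.1, pandas 2.3.3) and adjusted within each family, and plots were drawn with matplotlib 3.10.9. Each r was recomputed without the 2 dogs farthest from the median of a measure. The procedures were tested on simulated data. Named are all members, up to 4 genes of lowest p in each list and the 3 genes most correlated with each member, with further list genes chosen after their values were seen. The members, lists and tests were chosen with earlier results of these data known, so that counts over them are descriptions. Alternatives were other units and blocks, a RIN covariate, dropping the dimmest 25% of probesets, other normalizations, a moderated test with trend, the methods' test on arrays, the mean of a gene's probesets, rank correlation, naïve samples only and leaving out dogs. Leaving out samples 5 and 21 together was chosen after seeing the data.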

Additional observations from a re-analysis of the deposited data

Results flagged for a closer look

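Each of the 12 probesets was examined for a dog far from the others in the 7 healthy and in the 7 relapsed dogs, 24 groups in all, of which chance marks about 1 in 20. A single dog was marked. IL10 in healthy dog 1 was 9.11, where the next healthy dog had 8.34, a gap of 0.807 of the whole range of the group. The 4 arrays of this dog had IL10 between 8.81 and 9.55. Without this dog the difference of IL10 between DLBCL and healthy dogs was -0.19 (SE 0.31, adjusted p by limma 0.686). What sets this dog apart was not tested.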

How the results depend on the processing

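Of the members called, 2 in DLBCL, 2 in naïve and 1 in relapsed against healthy dogs and 0 between relapsed and naïve tumours, RIN as a covariate left 0, 0 and 0 of the first 3, and averaging the probesets of each gene left 1, 1 and 0. The sample number as a replicate block left 1, 1 and 0, where STAT3 had -0.39, -0.43 and -0.33 (limma adjusted p = 0.0659, 0.140 and 0.529). The numbers do not pair dogs: over 9 shared numbers the correlation of deviations was -0.0987 to 0.119, and 1 sample was nearest its own number. In relapsed dogs 3 were called with every array as a sample, and 2 with the dog as a random block, by the methods' test, with these groups only, or without samples 5 and 21. Leaving out single dogs gave 2 to 2, 1 to 2, 0 to 2 and 0 to 0 members. IL6ST was gained in relapsed dogs without healthy dog 4 or sample 5.

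Of 21 pairs, 1 was called, and 0 in naïve samples, within array days, with mean probesets, without samples 5 and 18 or without 5 and 21. Single dogs left out gave 0 to 2, with 2 without dog 10. Of 70 marker relations 3 were called, and 5 by rank, 0 in naïve samples, 7 on RIN residuals, 4 within array days (STAT3 with plasma cell markers and IL6ST with T cell, macrophage and endothelial markers, and none of the 3 called over all dogs), 7 without samples 5 and 18 and 5 without 5 and 21. Single dogs left out gave 3 to 8, with 8 without dog 5, 7 without dog 8 and 5 without dog 24. The cause was not tested.

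Signs turned only where no call was made. For IL6, DLBCL versus healthy dogs had -0.057 on arrays (also by the methods' test), -0.27 with RIN, -0.00852 without samples 5 and 21 and -0.077 to 0.20 without single dogs. For IL6, naive DLBCL versus healthy dogs, these were -0.023, -0.14, -0.086 and -0.11 to 0.15. In relapsed dogs IL6 had 0.11 with the dog block, 0.78 with the replicate block and -0.37 to 0.33 without single dogs, and IL10RA had -0.18 with the replicate block. Between relapsed and naïve tumours, IL6 had 0.091 with the dog block, 0.58 with the array day as a block, 0.015 without samples 5 and 21 and -0.41 to 0.28 without single dogs. IL10RA had 0.026 with the array day, 0.024 without samples 5 and 21 and -0.18 to 0.022 without single dogs. STAT3 had 0.039 with the array day. SOCS3 had -0.057 with mean probesets, -0.034 with the array day and -0.0060 without the dog in both groups. IL10 had -0.097 to 0.19 without single dogs. Dim probesets (SOCS3, IL10RA) limit what could be measured.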
